A study of Arabidopsis thaliana with 9 samples.

Results

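The genes described here encode CAF1-type deadenylases and tandem zinc finger proteins of Arabidopsis thaliana, and 9 loci make up the set. Of these, 6 are CAF1 loci, namely CAF1a (AT3G44260), CAF1b (AT5G22250), AT2G32070, AT5G10960, AT1G80780 and AT1G15920. The other 3 are the tandem zinc finger genes TZF1 (AT2G25900), SZF1 (AT3G55980) and SZF2 (AT2G40140, whose RefSeq symbol is CZF1). Loci were chosen by family name and identifier. The families themselves were selected on measured levels in these same libraries, among them that of CAF1a in PP2-A5oe against Col-0. Differences of these loci between groups are therefore given as values with their errors and no p. How many passed the threshold of the fit over all loci is stated beside the share of all loci that did, and nothing is read from it. Of the 22155 loci in the count table, 8 of the 9 were present and all 8 passed the filter on low counts. TZF1 was not analysed here.

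Polyadenylated RNA was sequenced from rosettes of 3 genotypes, with 3 biological replicates each: wild-type Col-0, PP2-A5oe, a line overexpressing PP2-A5, and pp2-a5, a mutant line of the same gene. PP2-A5 combines a TIR domain, a module of plant immune receptors, with a lectin domain, and the study asks about its place in defence against the spider mite Tetranychus urticae. All 9 libraries carry the control treatment label, so no library came from mite-infested plants. The labels give the rosette as tissue, whereas the extraction protocol speaks of seedlings, aged 3 weeks. The promoter that drives the overexpression, the pp2-a5 allele and the number of lines behind each genotype could not be taken from the sources used here. The PP2-A5 transcript itself was not analysed here.

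Removal of the poly(A) tail is usually the rate-limiting opening step of messenger RNA decay in eukaryotes. It is carried out largely by the CCR4-NOT complex, in which CAF1 and CCR4 are the nucleases, and it is followed by decapping and 5′-to-3′ decay or by 3′-to-5′ decay in the exosome. CCCH tandem zinc finger proteins bind AU-rich elements in messenger RNAs and, in animals, recruit CCR4-NOT to them. In Arabidopsis leaves CAF1a and CAF1b are known as wound- and stress-responsive genes that act in the deadenylation of stress transcripts, and SZF1 and SZF2 are known as salt-induced genes that restrain salt responses.

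Within the CAF1 family CAF1a and CAF1b were 81.4% identical over their aligned coding bases, and CAF1a was 62.7% to 65.8% identical to the other 4 loci. Among those 4, AT2G32070 was 80.6% identical to AT1G80780 and 74.8% to AT1G15920, while AT5G10960 was 62.5% to 68.6% identical to the rest of them. The 60 coding bases around the catalytic aspartate and glutamate, the opening acidic residues of this nuclease family, are shown for the 4 loci with a single annotated transcript, since these carry the firmest counts. Capitals mark the aspartate and the glutamate codon, and the sequences run 5′ to 3′ on the coding strand (RefSeq, TAIR10.1).
CAF1a: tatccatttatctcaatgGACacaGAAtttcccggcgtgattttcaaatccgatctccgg
CAF1b: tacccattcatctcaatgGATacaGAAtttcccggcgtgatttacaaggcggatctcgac
AT2G32070: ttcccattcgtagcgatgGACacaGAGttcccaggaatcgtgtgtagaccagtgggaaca
AT5G10960: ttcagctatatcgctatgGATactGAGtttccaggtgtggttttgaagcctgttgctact
The stretches lie at chr3:15952876-15952935 and chr5:7366277-7366336 on the minus strand, chr2:13641498-13641557 on the minus strand, and chr5:3464680-3464739 on the plus strand, all inside coding exons. CAF1a and CAF1b shared 50 of the 60 bases, and CAF1a shared 32 with AT2G32070 and 35 with AT5G10960. All 6 CAF1 loci held exactly 1 such site. CAF1a (chr3:15952008-15953346) and CAF1b (chr5:7365477-7366799) are single-exon genes, while AT2G32070 (chr2:13640594-13642060) and AT5G10960 (chr5:3464098-3466314) have 2 exons. The longest identical run between the CAF1a and CAF1b coding sequences was 32 bp, so stretches of up to that length matched both exactly. How the authors counted reads with more than 1 match was not given in the sources used here.

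SZF1 (chr3:20776220-20778952) and SZF2 (chr2:16771997-16774734), both on the plus strand, are close relatives with 79.1% identical aligned coding bases. Their RNA-binding fingers are shown because they were more alike than the coding sequences as a whole, with 133 of 153 bases identical (86.9%). Capitals mark the 8 cysteine and histidine codons that hold the zinc.
SZF1: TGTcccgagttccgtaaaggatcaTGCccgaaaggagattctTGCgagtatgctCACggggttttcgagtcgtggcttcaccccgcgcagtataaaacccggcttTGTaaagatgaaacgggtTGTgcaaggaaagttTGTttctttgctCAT
SZF2: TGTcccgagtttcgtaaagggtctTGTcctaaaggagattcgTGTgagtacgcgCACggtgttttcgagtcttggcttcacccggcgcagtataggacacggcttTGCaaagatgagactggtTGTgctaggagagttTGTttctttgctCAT
The stretches are codons 324 to 374 of SZF1 (chr3:20777625-20777777) and codons 260 to 310 of SZF2 (chr2:16773314-16773466). The matching stretch of TZF1 (chr2:11042222-11042374) was 68.0% identical to that of SZF1 and 71.9% to that of SZF2.

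The 250 bases before the annotated start were searched on both strands in each of the 9 loci for the W-box forms TTGACC and TTGACT, which WRKY transcription factors bind, the G-box CACGTG, the rapid stress response element CGCGTT and the DRE core GCCGAC. Matches were found in SZF1, with 3 W-boxes, and in SZF2, with 2, and none overlapped another motif. Windows of the other 7 loci held none of these letters. Over all 27443 promoters of the same length, 28.4% held a W-box, 6.49% a G-box, 2.59% the rapid stress response element and 2.56% the DRE core. The windows of SZF1 (chr3:20775970-20776219) and SZF2 (chr2:16771747-16771996) are shown, on the plus strand, because they share a tandem arrangement. Capitals mark the W-boxes.
SZF1: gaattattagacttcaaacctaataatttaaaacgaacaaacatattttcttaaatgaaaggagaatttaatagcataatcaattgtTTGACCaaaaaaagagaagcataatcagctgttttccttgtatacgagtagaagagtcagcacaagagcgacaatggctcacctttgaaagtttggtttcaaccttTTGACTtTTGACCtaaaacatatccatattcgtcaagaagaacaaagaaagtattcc
SZF2: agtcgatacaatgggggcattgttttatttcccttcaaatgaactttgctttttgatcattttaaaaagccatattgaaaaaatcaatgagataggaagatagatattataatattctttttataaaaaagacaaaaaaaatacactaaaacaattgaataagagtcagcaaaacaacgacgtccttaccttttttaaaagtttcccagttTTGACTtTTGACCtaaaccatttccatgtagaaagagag
W-boxes of SZF1 began 163, 57 and 50 bases before the start, and those of SZF2 39 and 32 bases before it. The run ttTTGACTtTTGACCtaaa, 19 bases long, was the longest that the pair of windows shared. Its core TTGACTTTTGACC, searched for after the matches had been seen, was present in 7 of the 27443 promoters (0.0255%), SZF1 and SZF2 included. Such matches describe the letters of these windows and do not show binding.

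Library totals ran from 5408847 to 6196722 counts. After removal of loci with low counts 13975 loci remained and held 99.8% of all counts. The labels do not say how replicates were grown, so a p-value here reflects the spread among these libraries and no more. Values are given as CPM (counts scaled to a common library total) after TMM scaling, as mean ± SD over 3 libraries, and differences as log2 fold changes ± SE from 1 edgeR quasi-likelihood fit of all 9 libraries. In bulk RNA, fewer cells of a type and less RNA per cell cannot be told apart. Loci with several annotated transcripts had low counts in this table: the median of the mean count per library was 64.4 for loci with 1 transcript, 22.9 for loci with 2 and 7.89 for loci with 3 or more. The way reads of such loci were counted is not stated, so the levels of SZF1, SZF2 and AT1G15920 (2 transcripts each) and AT1G80780 (3 transcripts) are less certain than those of the other 4.

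CAF1a transcripts were far more abundant in PP2-A5oe than in the other genotypes. The PP2-A5oe libraries held 1767, 1682 and 1544 counts of it, in replicate order, beside 99, 89 and 114 for Col-0 and 124, 128 and 118 for pp2-a5. On the CPM scale PP2-A5oe had 293, 303 and 267, Col-0 had 15.96, 14.9 and 21.3, and pp2-a5 had 20.1, 21.2 and 18.4. Every PP2-A5oe library lay far above the other 6, while the ranges of Col-0 and pp2-a5 overlapped. Mean levels in Col-0, PP2-A5oe and pp2-a5 were 17.4 ± 3.42, 288 ± 18.7 and 19.9 ± 1.37 CPM (n = 3 each). The log2 difference was 4.06 ± 0.10 between PP2-A5oe and Col-0, a 16.6-fold higher level, and 3.85 ± 0.09 between PP2-A5oe and pp2-a5, or 14.4-fold. By size, CAF1a stood 20th from the top of all 13975 loci in the former comparison and 7th in the latter. Between pp2-a5 and Col-0 the difference was 0.20 ± 0.12, ranked 3238th. The level in Col-0 replicate 3, which had the highest share of mitochondrial counts of all libraries (0.178%, against 0.0741% in the lowest), weighed on that comparison: without it the log2 difference of pp2-a5 from Col-0 was 0.36.

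CAF1b, the closest relative of CAF1a, followed the same order at a much lower level. Its libraries held 27, 20 and 32 counts for Col-0, 104, 96 and 86 for PP2-A5oe, and 41, 51 and 46 for pp2-a5. The corresponding levels were 4.35, 3.35 and 5.98 CPM, then 17.2, 17.3 and 14.9 CPM, and then 6.65, 8.43 and 7.19 CPM. None of the 3 ranges overlapped another, with pp2-a5 between the other groups. PP2-A5oe exceeded Col-0 by 1.86 ± 0.18 on the log2 scale (3.64-fold) and exceeded pp2-a5 by 1.15 ± 0.16 (2.22-fold). The mutant line exceeded Col-0 by 0.71 ± 0.21 (1.64-fold), a value that ran from 0.53 to 0.94 over the other ways of analysis.

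The remaining CAF1 loci, which encode deadenylases of the same type, showed no difference of that size. For AT2G32070 the Col-0 libraries stood at 35.3, 34.3 and 35.3 CPM, those of PP2-A5oe at 44.3, 46.5 and 39.1, and those of pp2-a5 at 48.8, 41.5 and 44.1. Both altered lines lay above Col-0 without overlap and overlapped each other. The log2 difference from Col-0 was 0.31 ± 0.09 in PP2-A5oe and 0.36 ± 0.09 in pp2-a5, and PP2-A5oe differed from pp2-a5 by -0.05 ± 0.09. For AT5G10960 Col-0 gave 74.5, 68.8 and 79.4 CPM, PP2-A5oe 74.9, 77.5 and 67.9 CPM, and pp2-a5 78.8, 80.2 and 83.2 CPM. Its PP2-A5oe and Col-0 ranges overlapped widely, and its log2 difference from Col-0 was -0.01 ± 0.08 in PP2-A5oe and 0.12 ± 0.08 in pp2-a5. PP2-A5oe lay below pp2-a5 without overlap, by -0.14 ± 0.08.

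AT1G15920 (chr1:5469255-5471149) was the member that ran the other way in the mutant line. Its level was 7.95, 6.45 and 7.66 CPM in pp2-a5, beside 9.67, 10.9 and 10.08 CPM for Col-0 and 9.45, 8.83 and 9.68 CPM for PP2-A5oe. All 3 pp2-a5 libraries lay below the other 6, by -0.47 ± 0.17 on the log2 scale against Col-0. AT1G80780 (chr1:30358000-30359606) was barely counted, with 17, 10 and 7 counts for Col-0, 12, 10 and 14 for PP2-A5oe and 10, 13 and 9 for pp2-a5, summed over its 2 table entries. Replicates overlapped in every comparison of AT1G80780. With SEs of 0.35 to 0.36 on the log2 scale, a difference as small as that of AT2G32070 was not detectable at this depth.

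Compared per kilobase of annotated exon among the 4 single-transcript CAF1 loci, the order of levels differed between genotypes. In Col-0 AT5G10960 led with 35.3 ± 2.51 CPM per kb, ahead of AT2G32070 with 26.2 ± 0.424, CAF1a with 13.0 ± 2.56 and CAF1b with 3.45 ± 1.00. In PP2-A5oe CAF1a led with 215 ± 13.9 CPM per kb, and CAF1b, at 12.4 ± 1.05, was still the lowest. Between them stood AT5G10960 (34.9 ± 2.35) and AT2G32070 (32.5 ± 2.86), which did not differ beyond their spread. In pp2-a5 the order was that of Col-0, with 38.4 ± 1.06, 33.6 ± 2.79, 14.9 ± 1.02 and 5.61 ± 0.691 CPM per kb. CAF1a was thus the most abundant of these 4 transcripts in PP2-A5oe and the third most abundant in Col-0 and in pp2-a5.

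SZF1, a tandem zinc finger gene, was higher in both altered lines, and more so in PP2-A5oe. Counts of its transcript were 1642, 1466 and 1609 with PP2-A5 overexpressed, 242, 226 and 229 for Col-0, and 529, 486 and 570 for pp2-a5. The levels were 272, 264 and 278 CPM in PP2-A5oe, 39.0, 37.8 and 42.8 CPM in Col-0, and 85.8, 80.4 and 89.1 CPM in pp2-a5. The 3 groups were fully separated, in the order Col-0, pp2-a5, PP2-A5oe. The log2 difference was 2.77 ± 0.07 between PP2-A5oe and Col-0 (6.82-fold), 1.10 ± 0.08 between pp2-a5 and Col-0 (2.14-fold) and 1.67 ± 0.07 between PP2-A5oe and pp2-a5 (3.19-fold).

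SZF2 showed the same order at a fraction of the counts. Col-0 libraries held 19, 13 and 12 counts, PP2-A5oe libraries 41, 38 and 57, and pp2-a5 libraries 32, 29 and 39. These corresponded to 3.06, 2.18 and 2.24 CPM, 6.80, 6.85 and 9.85 CPM, and 5.19, 4.79 and 6.10 CPM. Again no ranges overlapped, although PP2-A5oe and pp2-a5 stood close. PP2-A5oe was 1.63 ± 0.24 above Col-0 on the log2 scale (3.10-fold), pp2-a5 was 1.09 ± 0.26 above Col-0 (2.13-fold), and PP2-A5oe was 0.54 ± 0.20 above pp2-a5.

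**Figure D1:**
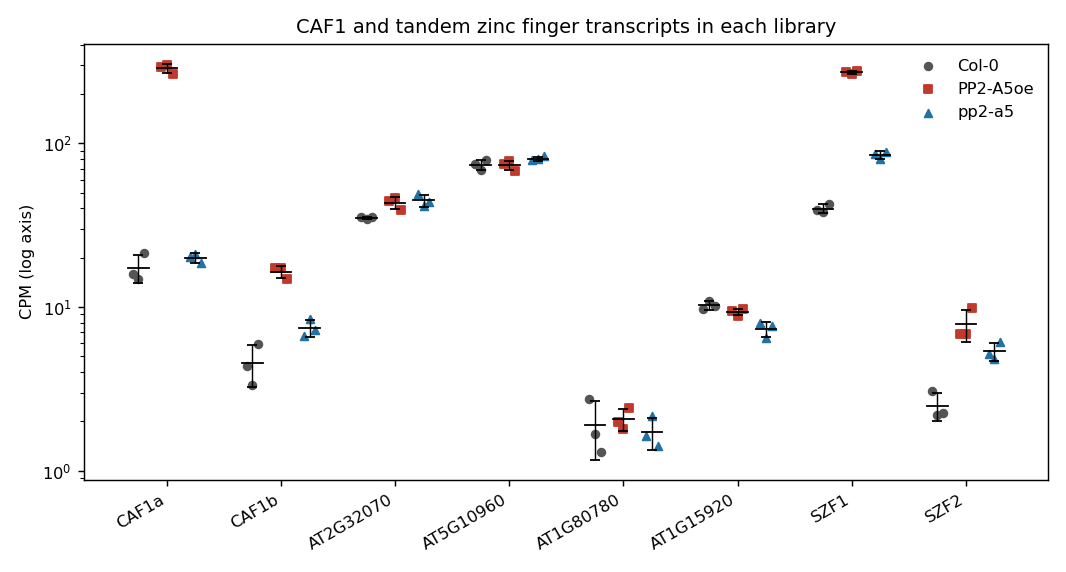
Each point is the level of a transcript in 1 library (CPM, log axis), with Col-0 in grey circles, PP2-A5oe in red squares and pp2-a5 in blue triangles, and bars give mean ± SD (n = 3). CAF1a and SZF1 in PP2-A5oe stand at 288 and 272 CPM, far above their levels in the other groups, while AT5G10960 stays near 74 to 81 CPM in all 3.

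**Figure D2:**
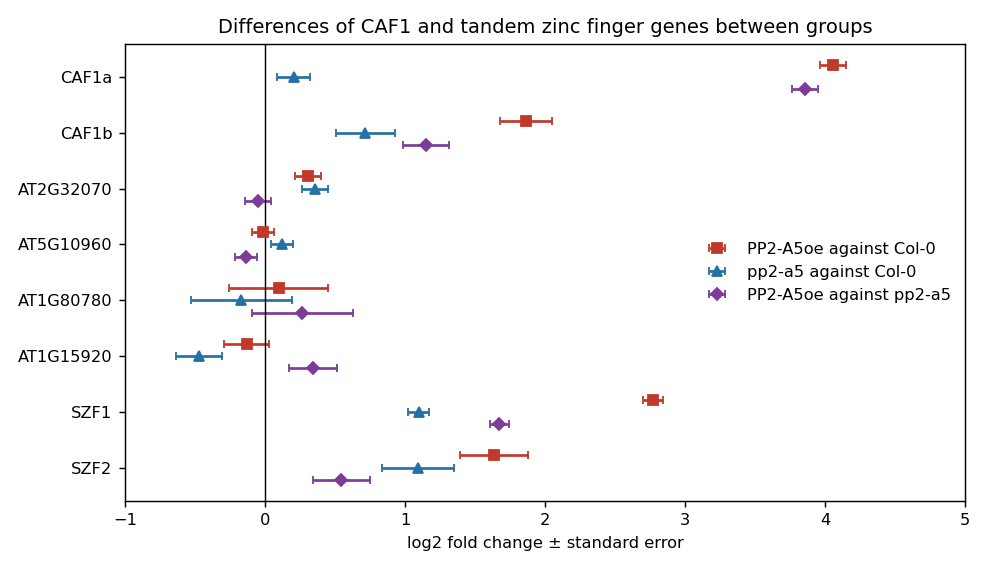
Points are log2 fold changes with SE for the 3 comparisons of each locus, from the fit of all 9 libraries. CAF1a is near 4 in both comparisons that hold PP2-A5oe and 0.20 in pp2-a5 against Col-0, whereas SZF1 and SZF2 are about 1.1 in the latter.

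The plot of levels by library sets both gene families side by side, and the plot of log2 differences shows the position of pp2-a5, next to Col-0 for CAF1a and between the other groups for CAF1b, SZF1 and SZF2. The Col-0 libraries enter both comparisons of a line with Col-0, so those comparisons share samples. Among the 8 loci tested, 5 were called higher and 0 lower in PP2-A5oe against Col-0 at an adjusted p under 0.05, and 5 did not overlap. Over all 13975 loci 25% were called there, 14.5% as higher and 10.5% as lower, and 36.8% did not overlap. With upper-quartile scaling in place of TMM the called loci of this comparison were 46.1% higher, against 58.0% as reported. In pp2-a5 against Col-0, 4 were called higher (CAF1b, AT2G32070, SZF1 and SZF2), 1 lower (AT1G15920), and 5 did not overlap. The shares over all loci were 20.8% called, 12.3% higher, 8.47% lower and 33.7% without overlap. Of the calls in this comparison 59.2% were higher, and 49.7% with upper-quartile scaling. In PP2-A5oe against pp2-a5, 3 were called higher (CAF1a, CAF1b and SZF1), 0 lower, and 6 did not overlap, beside 12.7% called, 7.21% higher, 5.45% lower and 28.4% without overlap over all loci. The call of AT2G32070 in PP2-A5oe was lost under DESeq2, without PP2-A5oe replicate 2, and without the pair of libraries richest in mitochondrial counts (Col-0 replicate 3 and PP2-A5oe replicate 2), over a range of 0.25 to 0.37. That of CAF1b in pp2-a5 was lost under DESeq2 and without Col-0 replicate 1, Col-0 replicate 2 or pp2-a5 replicate 2. CAF1a in pp2-a5 was called only without Col-0 replicate 3, alone or together with PP2-A5oe replicate 2. The call of AT1G15920 was lost in 11 of 16 other settings, among them without any single library of Col-0 or pp2-a5, with values of -0.53 to -0.39.

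Other genes of messenger RNA decay, pooled over 6 lists, were called about as often as all loci, but the lists differed widely. Of 66 such genes in 6 lists, 53 had counts and 35 were tested, of which 8 rose and 2 fell in PP2-A5oe against Col-0, 5 rose and 1 fell in pp2-a5 against Col-0, and 3 were higher and 1 lower in PP2-A5oe against pp2-a5. The shares called were 28.6%, 17.1% and 11.4%, beside 25%, 20.8% and 12.7% of all loci. Tandem zinc finger genes weighed on these shares, with 83.3%, 83.3% and 50% called. In PP2-A5oe against Col-0 the CAF1-like, CCR4-NOT, decapping, exosome and poly(A)-binding lists had 50%, 12.5%, 14.3%, 0% and 66.7%. In pp2-a5 against Col-0 the only other list with a call was the poly(A)-binding proteins (1 of 3 tested, 33.3%). In PP2-A5oe against pp2-a5 it was the CCR4-NOT list (1 of 8 tested, 12.5%). The pooled shares of both these comparisons thus rest mostly on the tandem zinc finger genes, and calls outside that list were rarer than over all loci. The median log2 fold changes were 0.01, -0.02 and 0.03, beside -0.02, -0.01 and -0.00 over all loci tested. The plot of these lists shows most genes near 0. All listed genes without counts had 2 or more annotated transcripts, among them AT1G02080, DCP2, VCS, DCP5, LSM1B, RH8 and PAB5. PARN, CER7 and PAB8, also with several transcripts, were near 0 CPM. The shares therefore leave out part of the decay machinery.

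**Figure D3:**
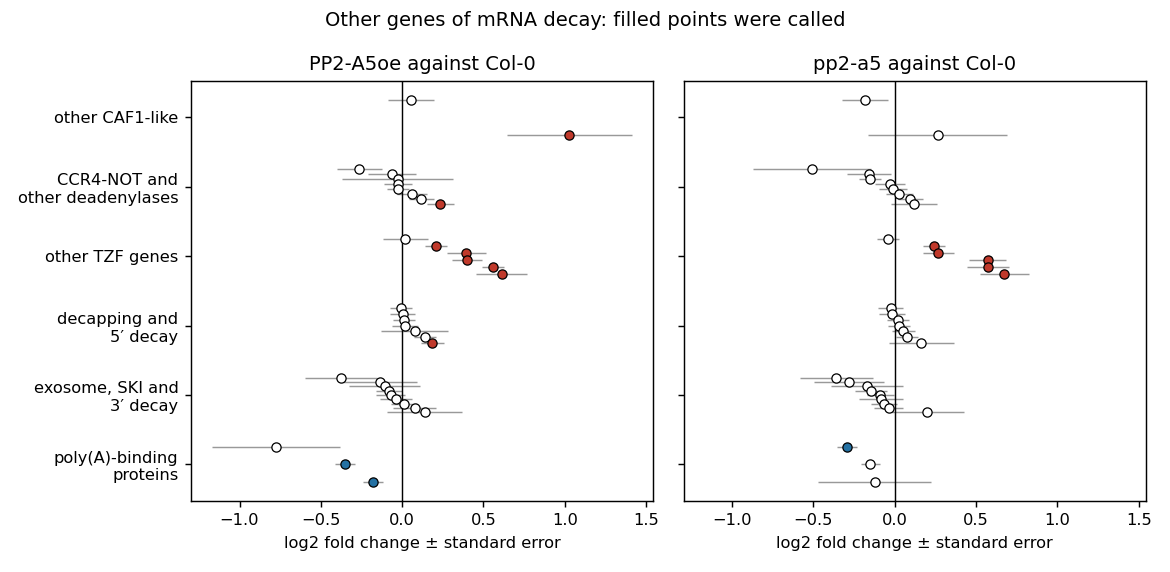
Each point is 1 tested gene outside the set described here, with its log2 fold change and SE, by list, for PP2-A5oe against Col-0 (left) and pp2-a5 against Col-0 (right). Filled points were called at an adjusted p under 0.05 (red higher, blue lower): of the 6 tested tandem zinc finger genes 5 are filled in each panel, while the exosome and SKI list has none.

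Among 15 other CCR4-NOT subunits and deadenylases 8 were tested, and 1 rose in PP2-A5oe. This was NOT2b (AT5G59710, RefSeq symbol VIP2), a NOT2-type subunit, at 61.8 ± 4.44 CPM in Col-0, 72.9 ± 6.51 in PP2-A5oe and 61.5 ± 1.96 in pp2-a5. The rise in PP2-A5oe was a log2 fold change of 0.24 ± 0.08 against Col-0 (adjusted p = 0.035) and 0.25 ± 0.08 against pp2-a5 (adjusted p = 0.0447). These calls were lost in 7 and 9 of 17 other settings, with values from 0.16 to 0.29 and from 0.17 to 0.29, and DESeq2 called 0 of the list. In pp2-a5 against Col-0 edgeR called 0 of the 8 and DESeq2 0, with 1 at an unadjusted p under 0.05. The most abundant of the list, AT3G58560, had 131 ± 3.83 CPM in Col-0, 128 ± 7.03 in PP2-A5oe and 117 ± 1.99 in pp2-a5. The annotation gives AT3G58560 as a DNAse I-like protein, the fold that CCR4 nucleases share. The RNA-binding protein gene AT3G45630 followed with 64.4 ± 0.654, 69.8 ± 1.97 and 68.8 ± 1.83 CPM. Of 5 other CAF1-like loci 2 were tested, AT1G06450 at 13.7, 14.2 and 12.1 CPM and AT1G61470 at 1.46, 2.91 and 1.73 CPM in Col-0, PP2-A5oe and pp2-a5. AT1G61470 was called higher in PP2-A5oe against Col-0 (adjusted p = 0.0472), but its replicates overlapped and the call was lost in 10 of 17 settings. In pp2-a5 against Col-0 edgeR and DESeq2 each called 0 of the pair, with 0 at an unadjusted p under 0.05.

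Of the other tandem zinc finger genes, TZF2, TZF3, TZF7 and TZF9 rose in both lines against Col-0, AT5G12850 in PP2-A5oe and TZF5 in pp2-a5. Of 8 listed, 6 were tested, of which 5 rose and 0 fell in PP2-A5oe against Col-0, and 5 rose and 0 fell in pp2-a5 against Col-0, with median log2 fold changes of 0.40 and 0.42. DESeq2 called 3 and 4 of the 6. Of the calls in PP2-A5oe those of TZF3 and AT5G12850 were lost in 4 and 7 of 18 other settings, and in pp2-a5 that of TZF9 in 9. TZF7 (AT2G41900, also OXS2), an oxidative stress gene, was the most abundant, at 206, 202 and 182 CPM in Col-0, 298, 274 and 299 for PP2-A5oe, and 231, 241 and 227 for pp2-a5. Its groups were fully separated, as with SZF1 in the order Col-0, pp2-a5, PP2-A5oe. PP2-A5oe exceeded Col-0 by a log2 fold change of 0.56 ± 0.07 (adjusted p = 2.9e-08) and pp2-a5 by 0.32 ± 0.07 (adjusted p = 0.000546). The rise of pp2-a5 over Col-0 was 0.24 ± 0.07 (adjusted p = 0.00741), and 0.19 without pp2-a5 replicate 2, where the call was lost.

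TZF2 (AT2G19810, also OZF1), a gene of the oxidative stress response, rose from 9.78 ± 0.547 CPM in Col-0 to 14.95 ± 1.75 in PP2-A5oe and 15.6 ± 2.80 in pp2-a5. Its log2 fold changes against Col-0 were 0.61 ± 0.16 (adjusted p = 0.00319) and 0.67 ± 0.15 (adjusted p = 0.0012). TZF9 (AT5G58620) rose from 34.3 ± 3.44 CPM to 45.4 ± 2.02 in PP2-A5oe (log2 0.40 ± 0.09, adjusted p = 0.00119). TZF3 (AT4G29190, also OZF2), with 21.05 ± 1.96 CPM in Col-0, rose to 31.2 ± 3.00 in pp2-a5 (log2 0.57 ± 0.11, adjusted p = 0.00029). TZF5 (AT5G44260) took another pattern and rose in pp2-a5 against Col-0, from 18.6 ± 1.12 to 27.7 ± 4.48 CPM (log2 0.57 ± 0.13, adjusted p = 0.00105). In PP2-A5oe TZF5 stood at 18.9 ± 3.53 CPM, below pp2-a5 by a log2 difference of -0.56 ± 0.13 (adjusted p = 0.00223), a call lost without pp2-a5 replicate 2, where the value was -0.42. AT5G12850, which encodes a CCCH zinc finger protein with ARM repeats, was higher in PP2-A5oe than in pp2-a5, at 122 ± 5.72 and 102 ± 1.78 CPM (log2 0.25 ± 0.07, adjusted p = 0.0105). That call was lost without PP2-A5oe replicate 1 (0.22) and without pp2-a5 replicate 2 (0.24). Against Col-0 the log2 differences of SZF1 and SZF2 in PP2-A5oe were 2.77 and 1.63, beside a highest value of 0.61 in this list.

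Of 14 decapping and 5′ decay genes 7 were tested and 1 rose in PP2-A5oe, AT3G22270, annotated as a PAT1 protein, from 130 ± 10.3 to 148 ± 2.67 CPM (log2 0.19 ± 0.07, adjusted p = 0.045). This call was lost in 13 of 18 other settings. DESeq2 called 0 of the 7, and in pp2-a5 against Col-0 edgeR and DESeq2 both called 0, with 0 at an unadjusted p under 0.05. DCP1, a decapping cofactor, had 155 ± 5.66 CPM in Col-0, 171 ± 10.12 in PP2-A5oe and 163 ± 12.1 in pp2-a5, and XRN4, the cytoplasmic 5′-to-3′ exonuclease, had 117 ± 8.55, 117 ± 5.27 and 119 ± 3.04 CPM. Of 16 exosome, SKI and 3′ decay genes 9 were tested, and edgeR and DESeq2 called 0 in each comparison, with 0 at an unadjusted p under 0.05. The most abundant of these were MTR4, an exosome helicase, with 72.1 ± 3.17, 68.2 ± 5.32 and 69.0 ± 2.01 CPM, and SOV, a 3′-to-5′ exonuclease, with 54.8 ± 2.71, 55.2 ± 1.68 and 51.5 ± 3.08 CPM. Poly(A)-binding proteins coat the tail that CAF1 removes. Of 8 listed 3 were tested, and 2 fell in PP2-A5oe and 1 in pp2-a5 against Col-0. The third, PAB7, was low, at 2.30, 1.33 and 2.08 CPM in Col-0, PP2-A5oe and pp2-a5, and its replicates overlapped. PAB5 had no counts and PAB8 was near 0, both with 2 annotated transcripts, so the family is covered in part. PAB4 (AT2G23350) fell from 230 ± 3.28 CPM to 180 ± 1.40 in PP2-A5oe (log2 -0.35 ± 0.06, adjusted p = 4.51e-05) and to 187 ± 8.64 in pp2-a5 (log2 -0.29 ± 0.06, adjusted p = 0.000546). PAB2 (AT4G34110) fell from 647 ± 24.4 to 571 ± 28.8 CPM in PP2-A5oe (log2 -0.18 ± 0.06, adjusted p = 0.0273), a call lost in 4 of 18 other settings (values from -0.23 to -0.14).

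Loci most like CAF1a and SZF1 across the 9 libraries were ranked by the root-mean-square difference of log2(CPM + 1), centred on the Col-0 mean, without a test. For CAF1a these were CBF2, a cold-response transcription factor (0.292), ZAT10, a C2H2 zinc finger repressor (0.298), AT1G03240, of unknown function (0.319), AT4G29780, also without an assigned function (0.326), and GATL10, a galacturonosyltransferase-like gene (0.386). AT1G03240 was at 0 CPM in every Col-0 library, at 11.7 ± 3.15 CPM in PP2-A5oe and at 0.0551 CPM in pp2-a5, so its closeness to CAF1a on this scale rests on the added 1 and on the PP2-A5oe libraries. ZAT10 had 25.2 ± 1.76 CPM in Col-0, 342 ± 8.13 in PP2-A5oe and 38.5 ± 3.47 in pp2-a5. CBF2 had 2.70 ± 0.825, 50.1 ± 2.03 and 4.09 ± 0.959 CPM. For SZF1 the nearest were ZAT12, another C2H2 zinc finger gene (0.170), AT1G19380 (0.185), AT1G58420 (0.207), UCP5, a mitochondrial dicarboxylate carrier (0.212), and AT3G24460 (0.281). ZAT12 had 1.93 ± 0.248, 20.5 ± 1.06 and 4.51 ± 0.432 CPM and UCP5 had 18.8 ± 2.39, 106 ± 7.35 and 37.6 ± 0.313 CPM. In the plot of similar loci those near CAF1a stand at 3.2 or more in PP2-A5oe and below 0.8 in pp2-a5. Those near SZF1 stand at 0.68 or more in pp2-a5, so the pp2-a5 ranges of both sets overlap. The loci were picked on these same values.

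**Figure D4:**
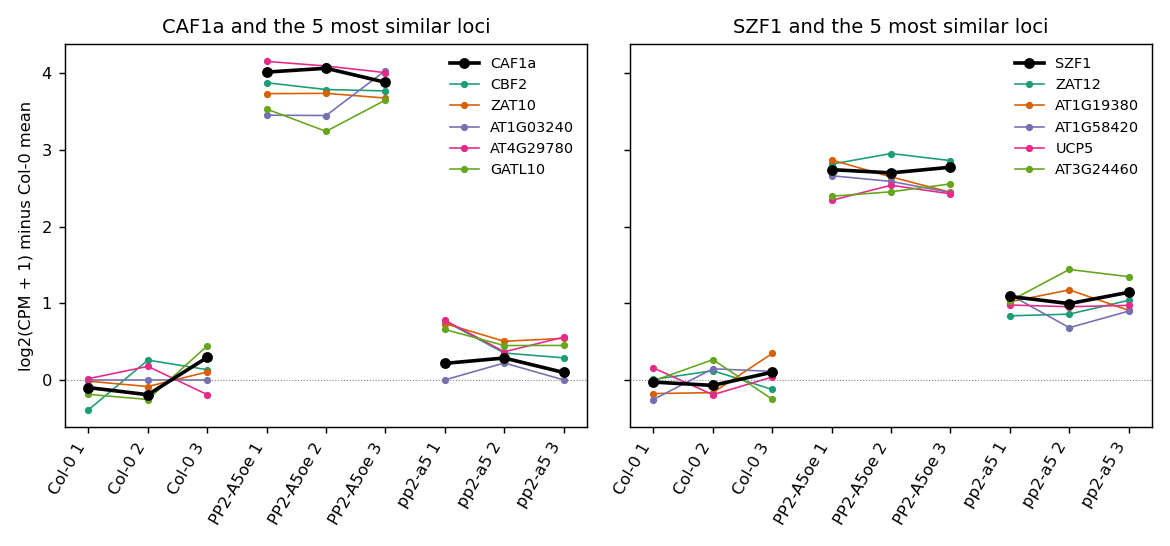
Lines join the replicates of a group and give log2(CPM + 1) minus the Col-0 mean in each library for CAF1a (left) and SZF1 (right), in black, with their 5 most similar loci in colour. CAF1a lies near 4 in PP2-A5oe and under 0.3 in pp2-a5, and SZF1 near 2.7 and 1.1.

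Genes known for rapid induction by touch and wounding, to which CAF1a is often counted, were also higher. Of 12 listed, 11 were tested. In PP2-A5oe against Col-0 10 rose and 0 fell (median log2 fold change 3.20), beside 14.5% of all loci called higher. In pp2-a5 against Col-0 9 rose and 0 fell (0.68), beside 12.3% of all loci. In PP2-A5oe 10 were higher than in pp2-a5 (1.97), beside 7.21%. This list was chosen with earlier results of these data known, so its adjusted p-values are a description and no independent support. AT4G29780 and ZAT10 were also among the 5 loci most like CAF1a. In this list the largest log2 fold change in PP2-A5oe was that of AT4G29780, 4.16 ± 0.10 (adjusted p = 1.12e-26), from 15.4 ± 2.08 to 276 ± 14.04 CPM, and that of ZAT10 was 3.77 ± 0.08 (adjusted p = 6.81e-28). TCH4, a touch-induced cell wall enzyme gene, rose by 3.31 ± 0.09 (adjusted p = 2.48e-24) in PP2-A5oe, and its pp2-a5 difference was 0.26 ± 0.12 (adjusted p = 0.116). WRKY33, a defence transcription factor gene, rose in both lines, from 75.5 ± 6.93 CPM to 309.7 ± 11.5 in PP2-A5oe and to 233 ± 12.1 in pp2-a5. WRKY40 and ERF11 rose in pp2-a5 against Col-0 by 1.93 ± 0.17 (adjusted p = 1.17e-10) and 1.78 ± 0.22 (adjusted p = 1.54e-07) on the log2 scale. ERF1A was called in no comparison.

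The summed level of root markers, made up mostly of PYK10, was higher in PP2-A5oe than in Col-0. In pp2-a5 the sum lay within the Col-0 range, although every root marker but PYK10 had a higher mean than in Col-0. All 8 root markers had counts, and their summed level was 229 to 289 CPM in Col-0, 344 to 360 in PP2-A5oe and 247 to 271 in pp2-a5. PYK10 made up most of that sum, with means of 245, 320 and 243 CPM in Col-0, PP2-A5oe and pp2-a5. LRX1 had means of 2.80 CPM in Col-0 and 3.56 in pp2-a5, PRP3 4.70 and 7.43, and CASP1 0.563 and 0.971. Replicates of LRX1 and CASP1 overlapped between these groups. The 4 root markers that were tested (LRX1, PRP3, CASP1 and PYK10) rose in PP2-A5oe against Col-0, and 1 of them, PRP3, in pp2-a5. The defining root markers EXPA7, EXPA18, SHV2 and NRT2:1 were at or near 0 in Col-0, with 0.0622, 0.0622, 0.116 and 0 CPM, and stood at 0.762, 0.805, 0.863 and 0.233 CPM in PP2-A5oe and 0.270, 0.373, 0.918 and 0.322 CPM in pp2-a5. EXPA7 and SHV2 were at 0 in PP2-A5oe replicate 3. Of the 5 leaf markers 3 had counts (CAB1, LHCB2.1 and LHCB5), and their summed level, 26579 to 30008 CPM in Col-0, was 21941 to 24597 in PP2-A5oe and 21723 to 22319 in pp2-a5, with 2 of 3 falling in each line. These leaf genes were thus abundant in every library, which cannot tell the rosettes of the labels from the green seedlings of the extraction protocol. The part of organ composition in the values of CAF1a, CAF1b, SZF1 and SZF2 was not tested. With Col-0 replicate 3 and PP2-A5oe replicate 2 left out, the log2 differences of CAF1a, CAF1b, SZF1 and SZF2 between PP2-A5oe and Col-0 were 4.17, 2.05, 2.83 and 1.65.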

How the data were processed

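Rosette RNA of 3 Arabidopsis genotypes (Col-0, PP2-A5oe and pp2-a5, 3 libraries each) was enriched for polyadenylated RNA and sequenced, per the labels' protocols. The authors deposited raw counts per locus, whole numbers without normalization, made against TAIR10 per the submitters' processing notes. Aligner, counting tool and annotation, and whether strand was used, were not given in the sources used here. In the count file, 22449 entries covered 22155 loci, and the entries of the 294 loci with 2 were summed.

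The test was edgeR 4.0.16, run under R 4.3.3. Loci were filtered by filterByExpr (minimum count 10, minimum total 15), scaled by TMM and fitted together by quasi-likelihood, 1 mean per genotype (6 residual degrees of freedom, biological coefficient of variation 6.89%). SEs were taken as the log2 fold change divided by the square root of F. A locus was called where its p, adjusted by Benjamini-Hochberg over 13975 loci, was under 0.05. An exact permutation test of 3 against 3 libraries cannot go below p = 0.1. Library totals of 5408847 to 6196722 counts set the precision of low genes, and counts of PCR reads are not independent molecules. Alternatives were DESeq2 1.42.0, RLE and upper-quartile scaling, no filter, a filter of 10 CPM in at least 3 libraries, the replicate number as a block, only the groups compared, and leaving out each library. Chosen after seeing the data were loci with 1 annotated transcript only and leaving out Col-0 replicate 3 and PP2-A5oe replicate 2, the libraries richest in mitochondrial counts.

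Names, positions and sequences came from RefSeq's annotation of TAIR10.1, and tables and figures from Python 3.11.15 with pandas 2.3.3, numpy 2.4.6, matplotlib 3.10.9 and biopython 1.88. Members and lists were chosen with earlier results of these data known. All members were named. From each list up to 3 called genes with the smallest adjusted p per comparison were named, or up to 2 of the highest mean CPM where none was called, together with the 5 loci most like CAF1a and SZF1. Other genes of the lists that are named were chosen after their values were seen.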

Additional observations from a re-analysis of the deposited data

How the results depend on the processing

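No result changed its direction beyond the threshold in any setting. Of the 162 alternative values of the main counts, 13 were labelled as moved and 149 were not. The latter include sizeable shifts: in PP2-A5oe against Col-0 DESeq2 called 2505 loci, in place of 3496. The decay genes outside the set called in PP2-A5oe against Col-0 were 10 as reported, 6 with upper-quartile scaling, 5 with DESeq2 and 5 to 9 when single libraries were left out. In pp2-a5 against Col-0 they were 6, and 4 to 6 without single libraries, and in PP2-A5oe against pp2-a5 they were 4, and 1 to 4. The 5 set members called in PP2-A5oe against Col-0 were 3 when only loci with 1 transcript were fitted, where SZF1 and SZF2 are absent, and 4 to 5 without single libraries. The 5 called in pp2-a5 against Col-0 were 3 with DESeq2, 3 with the 10 CPM filter, 2 with 1-transcript loci and 3 to 5 without single libraries. The 3 called in PP2-A5oe against pp2-a5 remained 3 in number without single libraries. As reported, 25%, 20.8% and 12.7% of all loci were called in these 3 comparisons, and nothing is read from the counts of set members. Called loci without single libraries were 2818 to 3675, 2255 to 3145 and 1342 to 2161 in the 3 comparisons, and DESeq2 called 1179 in PP2-A5oe against pp2-a5, in place of 1769. Deviations of same-numbered libraries correlated at -0.212 to 0.0763, so the numbers did not pair the samples. The replicate block gave 3185 and 2575 called loci in the comparisons with Col-0. The causes of these shifts were not tested. Low counts limit AT1G80780 and SZF2. The log2 difference of AT1G80780 moved to 0.46 in PP2-A5oe against Col-0 without Col-0 replicate 1, and that of SZF2 in pp2-a5 against Col-0 to 1.27.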

Other observations

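The tandem of W-boxes shared by the promoters of SZF1 and SZF2 was also present before 5 other loci. It lay on the gene strand, as in SZF1 and SZF2, before AT1G63660 and AT5G65495. Before AT2G42780, AT5G65180 and AT5G65490 it lay on the other strand. Whether the matches before AT5G65490 and AT5G65495, which have neighbouring locus numbers, are a single site was not checked. Of the 5 loci, AT5G65490 and AT5G65495 were tested. AT5G65490, annotated as a suppressor-like protein, fell from 48.1 ± 7.36 CPM in Col-0 to 37.1 ± 1.249 in PP2-A5oe (log2 fold change -0.38 ± 0.11, adjusted p = 0.00705, n = 3 each) and stood at 42.5 ± 5.97 in pp2-a5. AT5G65495 differed from Col-0 by 0.01 ± 0.26 in PP2-A5oe (adjusted p = 0.983). AT1G63660, AT2G42780 and AT5G65180 had too few counts to be tested, with at most 17 counts summed over the libraries of a group. The tandem was looked for after the SZF1 and SZF2 values were known, and these values are a description.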
